A study of Mus musculus with 6 samples.

Results

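The genes described here are the ribosomal protein genes of the cytosolic ribosome, measured in mouse liver. They were chosen by symbol alone. Every gene was taken whose symbol is Rpsa, or is Rpl or Rps followed by a protein number and at most a single letter. Rplp0, Rplp1 and Rplp2 were also taken, and rows named with -ps were not. Symbols with a longer suffix, such as Rpl36al, fell outside the rule. The rule found 82 of 50600 genes, 50 of the large subunit and 32 of the small subunit, and no measured value was used to choose them. GENCODE M21 annotates 80 of them as protein-coding and 2, Rpl6l and Rps4l, as processed pseudogenes; both met the symbol rule and are counted throughout. Of these, 79 had enough counts to be tested; Rpl3l, Rpl10l and Rpl39l did not.

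RNA of whole mouse liver was sequenced in 6 libraries, to ask how the loss of Dicer in hepatocytes alters gene expression. Dicer is the ribonuclease that cuts microRNAs from their hairpin precursors. Dicer LKO mice carried loxP-flanked Dicer alleles and the Alb-cre transgene (3 libraries), and control mice carried the same loxP-flanked alleles without it (3 libraries). All mice were C57BL/6 and 1 month old. The albumin promoter drives Cre in hepatocytes, and liver cells in which that promoter was never active keep the gene. The labels do not say whether each library came from a separate animal, and p-values measure only the spread between these libraries, which may be technical.

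Each ribosome is built from one copy of nearly every ribosomal protein, set on ribosomal RNA, and cells therefore make these proteins in matched amounts. Their mRNAs are short, abundant and stable, and most begin with a run of C and T called the terminal oligopyrimidine tract, or TOP, through which mTORC1 and the RNA-binding protein LARP1 control their translation. Such control acts on the use of an mRNA by ribosomes and need not alter its level, and RNA sequencing of total RNA reads the level only.

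The start sites below belong to the 5 genes with the highest log2 fold changes, to 4 of the 5 with the lowest, and to the muscle paralog Rpl3l. They are shown because the TOP run is the family's best-known regulatory sequence. The 60 ribosomal protein genes with a RefSeq window had 72 windows. Where a gene had several annotated starts, the start with the longest run was shown, so the choice favours long runs. A run had to reach within 5 bases of the start but need not begin at it, so it is not always a TOP run. The sequences are from RefSeq (GRCm38.p6) and span 20 bases before and 10 bases from the annotated start, 5′ to 3′; capitals mark the longest run of C and T at or near the start, as far as it lies in the window.
Rps15a, chr7:118116138-118116167, minus strand: gcccactctctttctgccaTCTTCCCTCgc
Rpl31, chr1:39367831-39367860, plus strand: cacctcttcctcctcgCCTCCCCgtgaccc
Rps26, chr10:128626497-128626526, minus strand: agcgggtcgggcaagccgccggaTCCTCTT
Rpl41, chr10:128549159-128549188, minus strand: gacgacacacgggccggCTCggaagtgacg
Rpl39, chrX:37085213-37085242, minus strand: ccccccctaagctccgCCTCTagcgacttc
Rps2, chr17:24720043-24720072, plus strand: tgcgtaggcagtcgagatctcgcgCTTCTT
Rps15, chr10:80292411-80292440, plus strand: gccctcccggcagagCTCgcgataactgcg
Rpl27a, chr7:109519175-109519204, plus strand: cgcgagacttcgtgagCTCCTCCCTTTTCC
Rpl35a, chr16:33056462-33056491, plus strand: gcgcggcggggcttgCCTTCCTCTTTCCgc
Rpl3l, chr17:24727806-24727835, plus strand: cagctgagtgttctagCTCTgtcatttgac

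At the starts shown, long and short runs were found at both ends of the range of fold changes. Rps15a and Rps26 had a run of 9 bases, and Rpl41 had 3; among the genes with the lowest fold changes Rpl27a had 20 and Rps15 had 3. Of the 60 ribosomal protein genes with a RefSeq window, 51.7% had a run of at least 6 bases that reached within 5 bases of an annotated start. The share was 23.0% of all 27025 genes with a window. A gene with several annotated starts was counted, here and for the motifs below, if any of them matched. In the window of 250 bases before to 50 bases after the start, the motif CCGGAAG, read on both strands, was present in 41.7% of the ribosomal protein genes and in 9.9% of all genes. AAGATGG was present in 15.0% of the ribosomal protein genes and in 7.3% of all genes, and TATAAA in 6 of the 60 ribosomal protein genes and in 15.7% of all genes. These are matches of letters and not measured binding sites, and an annotated start can differ from the one used in liver.

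The libraries held between 14141954 and 25049753 estimated counts, and control replicate 3 was the shallowest. That library stood apart in other ways. Ttn, the giant spring protein of striated muscle, had 3884 CPM in it, against 0.780 to 3.27 CPM in the other 5 libraries, and Acta1, the actin of skeletal muscle, had 422 CPM there. The 12 skeletal muscle markers summed to 10.5, 10.7 and 10.4 TPM in the Dicer LKO libraries, against 16.4, 17.4 and 1273 TPM in the control libraries. Mitochondrially encoded genes took 10.2% of the counts of control replicate 3 and 4.62% to 6.46% of those of the others. Dicer1 itself had 28.9, 31.2 and 24.4 CPM in the Dicer LKO libraries, against 42.5, 69.2 and 56.1 CPM in the controls (log2 fold change -0.99, adjusted p = 0.0622 by edgeR's quasi-likelihood test). Its libraries did not overlap between the groups, but the adjusted p missed 0.05. CPM here are each library's counts scaled to a common total with TMM factors, which suit one gene across libraries; TPM, which are also per length, are used to compare genes.

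No ribosomal protein gene passed the test in Dicer LKO liver. Of the 79 tested, 0 had an adjusted p under 0.05 by edgeR's quasi-likelihood test, where 1.29% of all 14314 tested genes did (0.741% higher and 0.552% lower in Dicer LKO). The smallest adjusted p among them was 0.188. Unadjusted p-values under 0.05 were found for 2 of them, Rps15a and Rps26, where 21.0% of all tested genes had one. DESeq2, whose fit also took in Rpl3l and Rpl39l, called 0 of 81 ribosomal protein genes. It gave 3 of the 81 an unadjusted p under 0.05, where 13.3% of all genes in its fit had one.

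The estimates themselves were small and nearly all of one sign. The log2 fold change, Dicer LKO over control, was positive for 78 of 79 genes, against 48.6% of all tested genes. Its median was 0.22, between a lowest value of -0.031 and a highest of 0.529, and the median over all tested genes was -0.013. The standard errors ran from 0.15 to 0.319. The 95% intervals of 76 of 79 genes lay wholly between -1 and 1 on the log2 scale, and 77 included 0. In 7 genes all Dicer LKO libraries lay above all control libraries (among them Rpl31, Rpl41, Rps15a and Rps26), where 12.7% of all tested genes had that pattern; none lay wholly below, against 15.4% of all tested genes. The share of ribosomal protein genes without overlap was thus not above that of the whole table. The genes share libraries and move together, so the count of signs is not a count of independent observations.

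**Figure D1:**
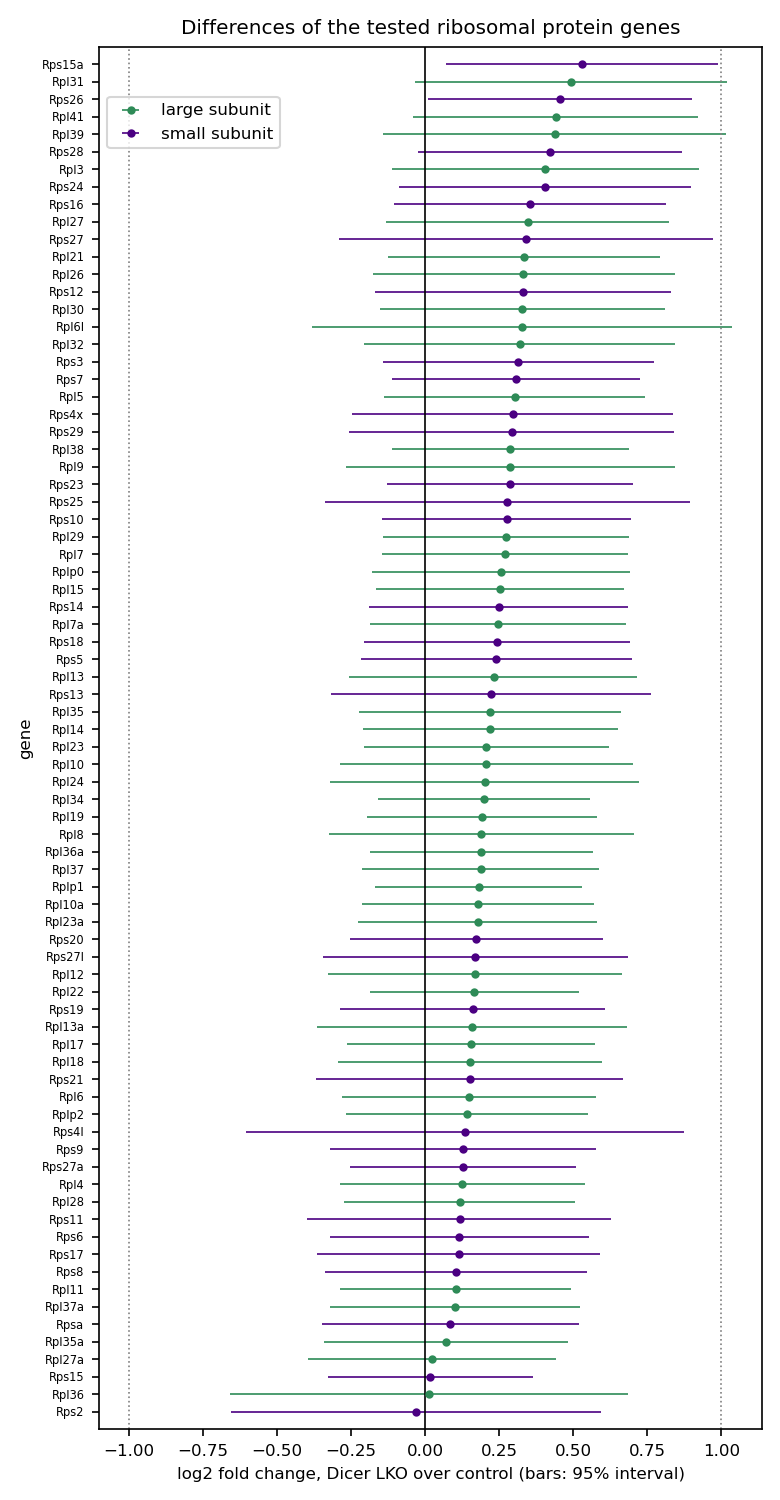
Log2 fold change, Dicer LKO over control, of 78 of the 79 tested ribosomal protein genes (points), ordered by value, with 95% intervals (bars); colours give the subunit and dotted lines mark -1 and 1. The points lie between -0.031 and 0.529, and 76 of the intervals drawn include 0.

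The genes moved together from library to library, also among libraries of one genotype. The median gene deviated from its own mean over the 6 libraries by 0.067, 0.12 and 0.195 (log2) in the Dicer LKO libraries, against 0.231, -0.16 and -0.466 in control replicates 1, 2 and 3. Control replicate 3 was the lowest library for 77 of 79 ribosomal protein genes, while it was the lowest for 25.1% of other tested genes. Control replicate 1, of the same genotype, was the highest library for 47 genes, Dicer LKO replicate 3 for 22 and Dicer LKO replicate 2 for 10. The 3 Dicer LKO libraries thus lay inside the range set by the control libraries for most genes.

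The Dicer LKO libraries also lay closer together. The SD between replicates of the median ribosomal protein gene was 0.087 in Dicer LKO and 0.344 in control on the log2 scale. It was the smaller in Dicer LKO for 79 of 79 genes, against 64.3% of other tested genes, whose median SDs were 0.175 in Dicer LKO and 0.246 in control. The difference in spread was not tested.

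**Figure D2:**
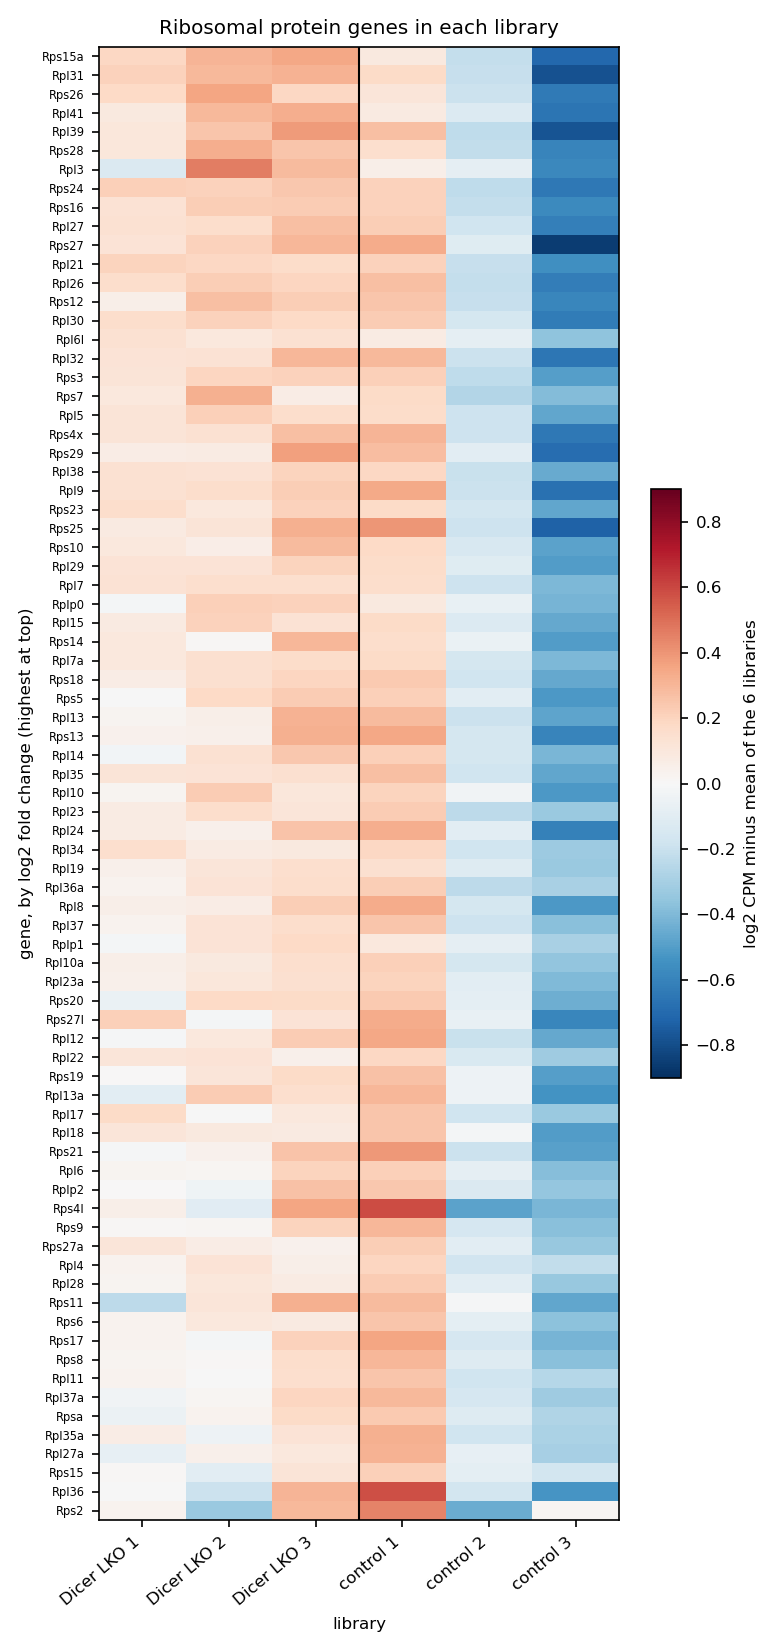
Log2 CPM of 78 of the 79 tested ribosomal protein genes (rows, highest log2 fold change at the top) minus each gene's mean over the 6 libraries (columns); red is above and blue below that mean, and the black line separates Dicer LKO from control libraries. Control replicate 3 is the lowest column for 76 of the genes drawn, and control replicate 1 is the highest for 47.

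As a share of all RNA counted, ribosomal protein mRNA did not differ between the groups beyond the spread. The 82 genes took 0.938%, 0.895% and 1.05% of all counts in the Dicer LKO libraries, against 1.08%, 0.839% and 0.757% in the control libraries. The mean shares were 0.961% ± 0.0806 in Dicer LKO and 0.894% ± 0.17 in control (SD, n = 3 each; two-sided exact permutation test, p = 0.6). The groups overlapped, and control replicate 1 had the highest share of the 6. In TPM the shares were 1.28%, 1.24% and 1.46% in Dicer LKO and 1.56%, 1.14% and 0.969% in control, with the same p of 0.6. The TPM total is not mRNA alone: Rn7s1 and Rn7s2, annotated as misc_RNA, took 46.4% to 53.2% of it. With Rn7s1, Rn7s2, Rn7sk and Rpph1 left out of the total, the TPM shares were 2.89%, 2.69% and 3.22% in Dicer LKO. In control they were 3.32%, 2.67% and 2.31% (two-sided exact permutation test, p = 0.7). Without control replicate 3 the difference in the share of counts was -0.000386 percentage points, against 0.0677 with it. With 3 libraries against 3 this test cannot give a p below 0.1, and in bulk tissue fewer cells of a type cannot be told apart from less RNA per cell.

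The balance of the subunits did not differ beyond the spread. The summed TPM of large subunit genes over that of small subunit genes was 1.38, 1.42 and 1.35 in Dicer LKO and 1.35, 1.42 and 1.44 in control (difference -0.0183, two-sided exact permutation p = 0.8). Large subunit genes had a median log2 fold change of 0.207, with 47 of 47 positive and values between 0.013 and 0.493. Small subunit genes had a median of 0.241, with 31 of 32 positive and values between -0.031 and 0.529. Within each library the order of the genes by level was also much the same: rank correlations of TPM over the 79 genes ran from 0.908 to 0.985 between pairs of libraries. These pairs share the genes' lengths and sequences, so the correlations describe a shared order of levels.

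The gene with the highest estimate was Rps15a (chr7:118104372-118116188, minus strand, GRCm38), which encodes a protein of the small subunit. It had 53.9, 58.6 and 60.5 CPM in the Dicer LKO libraries, against 50.3, 40.7 and 28.8 CPM in the control libraries. All Dicer LKO libraries were above all controls, and control replicate 3 was the lowest. Its log2 fold change was 0.529 (SE 0.199, 95% interval 0.069 to 0.989, adjusted p = 0.188 by edgeR). Without control replicate 3 it was 0.366.

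Rpl31 (chr1:39367842-39371911, plus strand), a large subunit protein near the mouth of the exit tunnel for new peptides, had 99.9, 106 and 107 CPM in Dicer LKO and 97.4, 74.7 and 49.99 CPM in control. The groups did not overlap, but control replicate 1 lay within 3 CPM of the lowest Dicer LKO library. The log2 fold change was 0.493 (SE 0.228, edgeR adjusted p = 0.262), and 0.302 without control replicate 3. An exon of Rpl31 overlaps one of Tbc1d8 in the annotation, and whether counting used strand is not given. Such overlap is common in the family: 37 of the 82 genes share exon positions with another annotated gene, Rpl27a, Rpl5 and Rpl3 among them.

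Rps26 (chr10:128624534-128626747, minus strand), which lies at the mRNA exit channel of the small subunit and is mutated in some patients with Diamond-Blackfan anaemia, had 73.8, 83.6 and 74.3 CPM in Dicer LKO and 70.3, 57.1 and 41.7 CPM in control. The groups again did not overlap, and control replicate 1 lay next to the Dicer LKO libraries. The log2 fold change was 0.454 (SE 0.193, edgeR adjusted p = 0.23). Without control replicate 3 it was 0.303.

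Rpl41 (chr10:128548114-128549305, minus strand) encodes the smallest protein of the ribosome, a single helix. It had 163, 188 and 192 CPM in Dicer LKO and 162, 141 and 96.8 CPM in control, so the nearest libraries of the groups all but met. Rpl39 (chrX:37082520-37085402, minus strand), a small protein that lines the exit tunnel, had 41.0, 45.3 and 49.9 CPM in Dicer LKO and 46.0, 32.5 and 22.0 CPM in control. Here control replicate 1 lay above 2 of the Dicer LKO libraries. The log2 fold changes were 0.441 (SE 0.209) and 0.437 (SE 0.249), and neither passed the test. Without control replicate 3 they were 0.28 for Rpl41 and 0.236 for Rpl39.

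At the other end of the order stood Rps2, Rpl36, Rps15, Rpl27a and Rpl35a, whose log2 fold changes lay between -0.031 and 0.071. Rps2 (chr17:24718116-24721929, plus strand), at the entry of the mRNA channel, had 373, 290 and 446 CPM in Dicer LKO and 497, 267 and 369 CPM in control. It was the one tested gene with a negative estimate (-0.031, SE 0.271), and its libraries were intermixed. Its exons overlap those of Snhg9 and Snora64. Rpl36 (chr17:56613416-56614243, plus strand) had 45.9, 40.1 and 57.1 CPM in Dicer LKO and 69.1, 40.9 and 31.6 CPM in control, and the 2 extremes were both controls. Its log2 fold change was 0.013 (SE 0.288).

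Rps15 (chr10:80292453-80294114, plus strand), a decoding-site neighbour that is also needed to export the small subunit from the nucleus, had 96.5, 89.4 and 104 CPM in Dicer LKO and 111, 90.2 and 85.2 CPM in control. Rpl27a had 123, 133 and 138 CPM in Dicer LKO and 160, 122 and 104 CPM in control. Rpl35a, another Diamond-Blackfan anaemia gene, had 79.8, 73.9 and 83.0 CPM in Dicer LKO and 95.3, 67.3 and 62.7 CPM in control. In all of these control replicate 1 was the highest library and control replicate 3 the lowest, with the Dicer LKO libraries between them. The intervals of Rps15 ran from -0.33 to 0.363, the narrowest of these 5.

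The highest TPM averaged over all 6 libraries belonged to Rpl41, Rps27 and Rpl10, although in the controls alone Rps2 averaged 356 ± 103 TPM (SD, n = 3), above Rpl10 and Rps27. Rpl41 averaged 486 ± 52.2 TPM in Dicer LKO and 380 ± 95.4 TPM in control (SD, n = 3 each). Rps27, a zinc-finger protein of the small subunit, averaged 394 ± 38.0 TPM in Dicer LKO and 327 ± 132 TPM in control. Rpl10, which is added last to the large subunit and lies close to the site of peptide bond formation, averaged 371 ± 17.7 TPM in Dicer LKO and 346 ± 80.7 TPM in control; its exons overlap Snora70. Rps27 had 78.7, 83.5 and 88.9 CPM in Dicer LKO and 91.2, 67.1 and 39.8 CPM in control, and Rpl10 had 309, 356 and 328 CPM in Dicer LKO and 350, 298 and 212 CPM in control. The libraries of all 3 genes overlapped between the groups in TPM, and the edgeR log2 fold changes of Rps27 and Rpl10 had intervals of -0.291 to 0.973 and -0.288 to 0.703.

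Over the 77 genes left when Rpl3l, Rpl10l, Rpl39l, Rpl6l and Rps4l are set aside, the mean TPM ran from 58.5 to 433 with a median of 145, a ratio of 7.4 between the highest and the lowest. All 77 were above 20 CPM in every library. Most of these proteins are needed in equal numbers, whereas these mRNA levels per length were not equal.

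The stalk proteins form the arm of the large subunit that recruits translation factors, with Rplp0 as its base and Rplp1 and Rplp2 as its paired tips. Rplp0 had 269, 317 and 315 CPM in Dicer LKO and 290, 260 and 204 CPM in control. Rplp1 had 123, 136 and 141 CPM in Dicer LKO and 133, 118 and 102 CPM in control. Rplp2, whose exons overlap Snora52, had 52.7, 51.2 and 63.1 CPM in Dicer LKO and 62.2, 48.0 and 41.1 CPM in control. The groups overlapped for each of the 3 genes through control replicate 1, and the median log2 fold change was 0.181 with none called. Per length, Rplp1 averaged 304 ± 28.9 TPM in Dicer LKO and 287 ± 38.8 TPM in control, above Rplp0 at 175 ± 17.1 TPM in Dicer LKO and 160 ± 26.3 TPM in control (SD, n = 3 each).

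Rpl5 and Rpl11 bind the 5S ribosomal RNA and, when ribosome assembly fails, hold back Mdm2, the ubiquitin ligase of p53. Rpl5 had 218, 233 and 224 CPM in Dicer LKO and 226, 176 and 145 CPM in control, and Rpl11 had 117, 114 and 126 CPM in Dicer LKO and 136, 101 and 95.3 CPM in control. The groups overlapped in both, with log2 fold changes of 0.302 and 0.104. A list of 9 genes known from Diamond-Blackfan anaemia, a failure of red cell production caused by loss of one copy of a ribosomal protein gene, had 9 positive estimates, a median of 0.275 and 0 called. The list is not the full set of genes reported in that disease. The 4 genes on the X chromosome had a median of 0.252 and 0 called. Over all 79 tested ribosomal protein genes, 78 estimates were positive, the median was 0.22 and 0 were called, so neither list stood apart by these counts.

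Rps27l, Rps4l and Rpl6l averaged fewer TPM than Rps27, Rps4x and Rpl6 in both groups, and none of them was called. Rps27l, a copy of Rps27 known as a p53 target, had 69.4, 59.2 and 65.3 CPM in Dicer LKO and 75.6, 57.1 and 39.7 CPM in control. It averaged 142 ± 17.2 TPM in Dicer LKO and 135 ± 42.2 TPM in control. Rps4x, the X-linked gene of a small subunit protein, had 154, 157 and 172 CPM in Dicer LKO and 177, 126 and 91.4 CPM in control. Rps4l, annotated as a transcribed processed pseudogene, was low, with 8.30, 7.39 and 10.4 CPM in Dicer LKO and 12.2, 5.57 and 5.87 CPM in control. Its libraries were intermixed, and its interval, from -0.605 to 0.875, was among the widest. Rpl6l, annotated as a processed pseudogene, had 1.19, 1.14 and 1.20 CPM in Dicer LKO and 1.13, 0.960 and 0.701 CPM in control; at about 1 CPM its lack of overlap rests on few reads.

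Rpl3l (chr17:24727820-24736143, plus strand) replaces Rpl3 in the ribosomes of skeletal and heart muscle. It had 0, 1 and 0 counts in the Dicer LKO libraries, against 2, 2 and 97 counts in control replicates 1, 2 and 3. The value of 6.18 CPM in control replicate 3 stood alone and was in the library with the high Ttn and Acta1. In the other libraries Rpl3l was under the limit that a count of 0 allows, 3 counts or 0.12 to 0.146 CPM. Rpl10l, the testis copy of Rpl10, had 0 counts in all 6 libraries, and Rpl39l, the testis copy of Rpl39, had 1 count in control replicate 1 and 0 in the others. These limits cover counting error only.

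Ribosomal protein genes have left many processed pseudogenes, copies of the mRNA put back into the genome. Sequence comparison with GENCODE M21 transcripts found 974 pseudogene rows that resemble 77 of the genes at 90% identity or more. They had few counts: 538 were at 0 in every library, 117 were tested with 0 called, and 3 reached 10 CPM in a library. Of the counts of parents and copies together, the copies took 2.49%, 2.95% and 2.16% in Dicer LKO and 2.40%, 3.74% and 2.63% in control. Reads that fit parent and copy alike are shared out by a model in expected counts, so the split between the 2 rows is uncertain.

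Rps2 shows how far this can reach. Rps2-ps10, 99.43% identical over 879 bases, had 6.51, 138 and 7.53 CPM in the Dicer LKO libraries, against 7.30, 132 and 5.42 CPM in the controls, and Rps2 was lowest in the same 2 libraries where the copy was high. Summed over the family the values were 389, 438 and 463 CPM in Dicer LKO and 515, 414 and 384 CPM in control, with a log2 fold change of -0.026 (SE 0.192, against 0.271 for Rps2 alone). Rpl3 had 149, 225 and 199 CPM in Dicer LKO and 169, 154 and 109 CPM in control, while Rpl3-ps1, 99.83% identical over 1210 bases, had 57.5, 1.62 and 30.4 CPM in Dicer LKO and 59.9, 25.8 and 39.5 CPM in control. The log2 fold change of Rpl3 was 0.405 alone and 0.245 for its family. Rps7 and Gm6472, 99.48% identical over 582 bases, gave 0.306 for Rps7 alone and 0.229 for the family. Over all 79 genes the median was 0.221 with families summed, against 0.22 without.

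**Figure D3:**
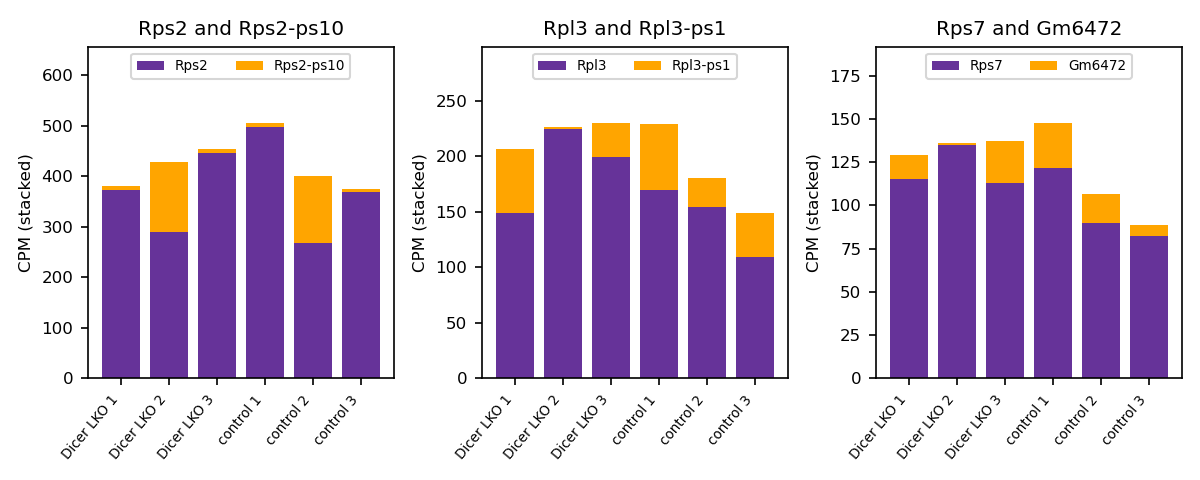
Stacked CPM of 3 ribosomal protein genes (purple) and of the pseudogene row that resembles each (orange), by library. Rps2-ps10 takes 138 CPM in Dicer LKO replicate 2 and 132 CPM in control replicate 2 and under 8 CPM elsewhere, and for Rps2 the stacked bars are more even than the purple ones.

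Ribosomal protein mRNAs are short, and short transcripts of other genes were also lowest in control replicate 3, followed by control replicate 2. The median effective length was 486 bases for the tested ribosomal protein genes and 2294 bases for other tested genes. Other genes under 700 bases deviated by a median of 0.069, 0.022 and 0.113 (log2) in the Dicer LKO libraries, against 0.085, -0.065 and -0.19 in the controls. Other genes over 5000 bases went the opposite way, with -0.091, -0.069 and -0.128 in Dicer LKO and -0.024, 0.084 and 0.186 in control. Control replicate 3 was thus at the extreme in both length classes, as it was for the ribosomal protein genes. At the other end the orders differed: control replicate 1 was the highest library by the median of the ribosomal protein genes, and Dicer LKO replicate 3 by that of the other short genes.

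In fold changes, 1113 other genes under 700 bases had a median of 0.133, against 0.207 for the 59 ribosomal protein genes of that length. The 1350 other genes over 5000 bases had a median of -0.201. In the class of 1000 to 1500 bases the 7 ribosomal protein genes had a median of 0.256 and the 1990 other genes 0.047. Across genes, the Spearman correlation of log2 fold change with length was -0.06 among ribosomal protein genes and -0.19 among the others, as a description of genes that share libraries. The part of transcript length, of the muscle RNA and of the mitochondrial share in the low values of control replicate 3 was not tested.

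**Figure D4:**
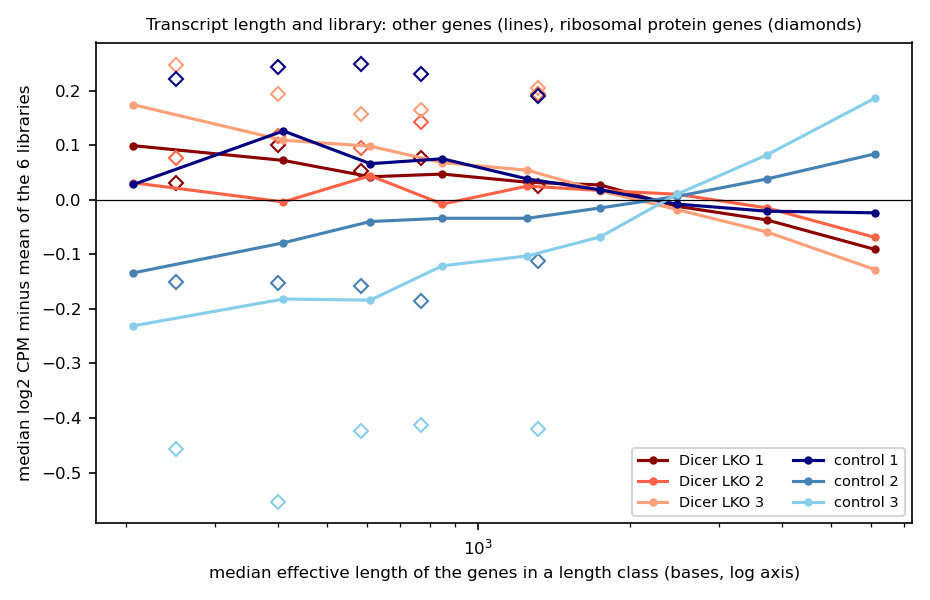
Median log2 CPM minus the mean of the 6 libraries (vertical axis) by class of effective length (horizontal, log axis), for other genes (lines) and ribosomal protein genes (diamonds), coloured by library. Control replicate 3 runs from -0.231 to 0.186 over the other genes, and its ribosomal protein genes lie at -0.413 or lower in every class.

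Leaving out control replicate 1 or 3 moved the common estimate by more than any other alternative tried. Without control replicate 3 the median log2 fold change of the ribosomal protein genes was 0.10 with 66 of 79 positive, and without control replicate 1 it was 0.422 with 79 positive and 48 under an unadjusted p of 0.05, as were 24.0% of all genes tested in that fit. In that last fit the smallest adjusted p was 0.0816, so 0 were called there too. Omitting control replicate 2 gave 0.214, and omitting the Dicer LKO libraries in turn gave 0.257, 0.26 and 0.19 for replicates 1, 2 and 3. Scaling by library totals alone gave a median of 0.11 with 70 positive, while the median of all genes shifted to -0.132; relative to all genes the difference was 0.243, against 0.233 with TMM.

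The count of called ribosomal protein genes was 0 under each of these settings, beside shares of all tested genes that varied. Without Dicer LKO replicates 1, 2 and 3, edgeR called 0.265%, 0.623% and 0.212% of all genes. Without control replicates 1, 2 and 3 it called 2.63%, 0.415% and 0.157%. It called 0.72% with library totals, 1.11% with DESeq2's size factors, 1.78% without the filter on low counts, 1.71% with the replicate number as a block and 1.27% with pseudogene rows summed by name or by sequence. DESeq2 itself called 4.64% and limma on log2(TPM + 1) 0.468%.

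**Figure D5:**
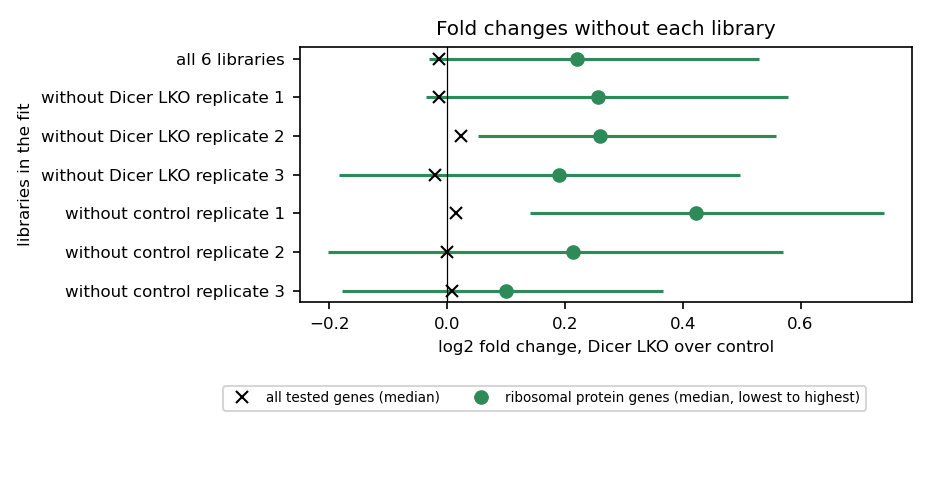
Median (green point) and range from lowest to highest (green bar) of the log2 fold changes of the 79 ribosomal protein genes, and the median of all tested genes (cross), with all libraries and without each in turn. The green point lies at 0.10 without control replicate 3 and at 0.422 without control replicate 1.

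The proteins that work with the ribosome showed similar small values. Of the 6 ribosome partners whose symbols lie outside the rule, 6 were positive and 0 called, with a median log2 fold change of 0.149. Fau, a fusion of a ubiquitin-like protein to a small subunit protein, had 131, 134 and 151 CPM in Dicer LKO and 157, 115 and 97.6 CPM in control. Control replicates 1 and 3 were its extremes, as for the ribosomal protein genes. The 78 proteins of the mitochondrial ribosome, which is built separately, had a median of 0.039 with 48 positive and 0 called, and 34 ribosome biogenesis genes a median of 0.047 with 23 positive and 0 called.

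Of 23 translation factors and other TOP mRNAs, 0 were called higher and 1 lower, Pabpc1, the poly(A)-binding protein of the cytoplasm and itself a TOP mRNA. Pabpc1 had 86.5, 76.1 and 75.2 CPM in Dicer LKO, against 122, 152 and 167 CPM in control, and the groups lay apart (log2 fold change -0.89, edgeR adjusted p = 0.0486). Of 17 genes of the mTORC1 pathway and TOP regulators, 0 were called higher and 2 lower, with 4 of 17 positive and a median of -0.168. Deptor, an inhibitor that binds mTOR, had 125, 85.6 and 134 CPM in Dicer LKO and 244, 239 and 283 CPM in control (log2 fold change -1.15, edgeR adjusted p = 0.047). Rptor, the subunit by which mTORC1 holds its substrates, had 25.3, 20.3 and 25.4 CPM in Dicer LKO and 36.8, 48.1 and 55.2 CPM in control (-0.98, edgeR adjusted p = 0.0495). Deptor holds the pathway back while Rptor is needed for it, and the 2 fell together.

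All 3 calls depended on the fit. Deptor was not called without any one library (adjusted p 0.0519 to 0.142), and Pabpc1 and Rptor were called in 1 of 6 such fits, the one without control replicate 1, with an adjusted p of 0.0327 each and up to 0.168 and 0.146 in the others. The adjusted p of Pabpc1, Deptor and Rptor was 0.058, 0.0605 and 0.0659 with library totals and 0.0701, 0.0583 and 0.0895 with limma on log2(TPM + 1). With DESeq2's size factors in edgeR it was 0.0505, 0.0494 and 0.0539, and DESeq2 itself called all 3, with 0.000131, 2.05e-05 and 0.000622. Larp1, which binds TOP runs, had 73.2, 74.5 and 74.0 CPM in Dicer LKO and 83.1, 131 and 174 CPM in control, with a log2 fold change of -0.81 and an edgeR adjusted p of 0.132. These are long or mid-length transcripts, and control replicate 3 was the highest library for each of the 4 genes.

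Some markers of other liver cells were called between the groups. Of 9 tested erythroid markers 6 were called higher, and the list summed to 1788, 2669 and 3502 TPM in Dicer LKO, against 537, 371 and 476 TPM in control. Of 9 bile duct markers 3 were called higher, with sums of 78.1, 90.8 and 155 TPM in Dicer LKO and 21.1, 28.3 and 20.6 TPM in control. Spp1 alone made up most of each sum, with 71.2, 86.0 and 145 TPM in Dicer LKO and 18.3, 23.6 and 14.9 TPM in control. The other called genes, Epcam and Cftr, averaged 2.13 and 0.12 TPM in Dicer LKO and 0.403 and 0.01 TPM in control. Log2 fold changes were positive for 7 of the 9 bile duct markers. Of 11 stellate and fibroblast markers 2 were called higher, with sums of 169, 154 and 180 TPM in Dicer LKO and 112, 108 and 121 TPM in control. None of the 12 macrophage, 7 B and plasma cell, 9 neutrophil and 9 proliferation genes tested was called, with medians of 0.798, 0.698, 1.766 and 0.985. The 10 hepatocyte markers, none of them at 0, summed to 38700, 42880 and 39580 TPM in Dicer LKO and 38350, 30510 and 22850 TPM in control, with 0 called. Of the skeletal muscle markers, Myh2 and Tnnc2 were at 0 in every Dicer LKO library, and the heart muscle markers summed to 1.55, 0.54 and 10.5 TPM in Dicer LKO and 13.4, 12.6 and 206 TPM in control. The heart markers did not rise alike in control replicate 3: Mb and Ttn had 87.9 and 48.2 TPM there, and Nppa had 5.60 TPM. Nppa had 4.23 and 4.20 TPM in control replicates 1 and 2, and 0, 0 and 3.94 TPM in Dicer LKO. The part of these cells in the values of the ribosomal protein genes was not tested.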

How the data were processed

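Liver RNA of 3 Dicer LKO and 3 control libraries was analysed from the deposited gene tables. Per the file headers, which have the columns that RSEM writes, the authors gave an expected count and a TPM for each gene; the submitters' processing notes list CASAVA, Bowtie and the build hg19, although the identifiers are of mouse, and the mouse build, annotation and strandedness used by the authors are not given there, in the labels or in the headers. Coordinates are those of GENCODE M21 (GRCm38), matched by gene ID for 82 of 82 genes. The deposited expected counts were rounded and tested with edgeR 4.0.16 (R 4.3.3; TMM, filterByExpr, robust quasi-likelihood fit, Benjamini-Hochberg adjustment over 14314 genes); the code was tested on simulated data. DESeq2 1.42.0, limma 3.58.1 on log2(TPM + 1), other scalings, no filter, summed pseudogene rows (BLAST+ 2.17.0; at least 90% identity over at least 50% of the row) and each replicate left out were alternatives. Deviations are of log2(CPM + 0.5). Shares were compared by exact permutation tests. Depth ran from 14141954 to 25049753 counts, and floors of 3 counts cover counting error only.

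Values by library are given for the 5 highest and the 5 lowest log2 fold changes, the 3 highest TPM, the stalk genes, the paralogs and the called genes of the translation and mTORC1 lists; the rule also took up to 4 called genes of each other list (or 2 where none was called), for most of which only counts, medians or sums of the list are printed; Rpl5, Rpl11, Rpl6l, Larp1 and the genes with pseudogene rows were added after their values were seen. The genes and lists were chosen with earlier results of these data known, and the skeletal muscle list after seeing values. Some single genes are not reported here by name, and 1 is not drawn; counts over all genes include them.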

Additional observations from a re-analysis of the deposited data

How the results depend on the processing

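In every fit 0 ribosomal protein genes were called, and the median log2 fold change stayed positive, at 0.10 to 0.422 over the fits that leave out one library and at 0.11 to 0.247 over the others; the number of positive genes was 66 to 79. With one library left out, the difference in share ran from -0.000386 (without control replicate 3) to 0.163 (without control replicate 1) percentage points for counts and from -0.0199 to 0.277 for TPM, and that in the subunit ratio from 0.00143 to -0.0458, for the same 2 libraries; with medians in place of sums the ratio differed by 0.00603. Genes near 0 changed sign. With library totals only, Rpl36 was at -0.081, Rps15 at -0.094, Rpl27a at -0.088 and Rpl35a at -0.038; with limma on TPM, Rpl36 was at -0.012, Rps15 at -0.074 and Rpl27a at -0.077. With single libraries left out, Rps2 ran from -0.203 to 0.219, Rpl36 from -0.178 to 0.395, Rps15 from -0.035 to 0.141, Rpl27a from -0.083 to 0.21, Rpl35a from -0.018 to 0.281, Rps27l from -0.012 to 0.418 and Rps4l from -0.036 to 0.605. The cause was not tested.

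Counts of calls over all genes also moved, at 185 in the fit reported, 1098 with DESeq2, 67 with limma, 103 with library totals, 422 without the filter, and 23 to 389 without one library. Over all tested genes, the deviations of same-numbered libraries correlated at 0.10, 0.07 and -0.088. Over the ribosomal protein genes the values were -0.001, 0.565 and -0.124, while Dicer LKO replicate 3 with control replicate 1 gave 0.465. With 3 libraries a group, such correlations cannot decide whether the numbers pair the libraries. A fit with the replicate number as a block called 245 genes and 0 ribosomal protein genes, and the median of the latter was 0.247. The block gave an adjusted p of 0.0709 for Pabpc1, 0.0344 for Deptor and 0.0585 for Rptor. With 3 libraries a group, the 95% intervals give the precision of each estimate.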
